A study of Mus musculus with 58 samples.

Results

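The 10 genes described here are Bbx, Epas1, Rbp2, Runx1, Gramd1b, Rftn2, Sh3gl3, Rbms1, Sall3 and Hes1. They are 10 of the 24077 genes of the count table, all 10 were found by symbol, and they were brought together as genes reported to carry H3K27me3 on the maternal allele in the early embryo. They were chosen by name with measured values of these libraries in view. Those values included the rise of Sall3, Hes1, Rbms1 and Bbx in knockout oocytes and the morula totals of Bbx, Gramd1b and Rftn2. They also included the control morula allele shares of Bbx, Hes1, Gramd1b and Rftn2. Values of those contrasts are therefore given as a description. Where a fit or a call is printed for them, it describes the values and is not read as a test. Which values led to the choice of each gene is not given, so others may have been in view. A p printed for another contrast may therefore not be independent of the choice. The histone mark itself was not analysed here, so the name of the group could be compared only with the RNA. Hes1 and Rftn2 went against it, as given below.

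H3K27me3 is the repressive histone mark laid down by Polycomb repressive complex 2, and H2AK119ub1 is the mark laid down by Polycomb repressive complex 1. At a set of genes the oocyte passes H3K27me3 to the embryo, where it can keep the maternal copy silent so that only the paternal copy is read. This is called noncanonical imprinting. At most such genes the allelic difference is known to fade after implantation, and at a few it persists in extraembryonic tissue. Pcgf1 and Pcgf6 encode subunits of variant forms of Polycomb repressive complex 1.

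RNA came from 3 stages: the fully grown oocyte (FGO), the morula, and the extraembryonic ectoderm (ExE), which is trophoblast tissue next to the epiblast. The oocytes were of strain B6.129, with 2 wild-type control (CTR) libraries and 2 Pcgf1/6 double knockout (KO) libraries. Morulae were B6.129 x PWK embryos, with 2 wild-type CTR libraries and 2 libraries labelled as Pcgf1/6 double maternal knockout (matKO). ExE was of the same cross, with 2 wild-type CTR and 4 matKO libraries. The mother was always B6.129 and the father always PWK in the libraries used, so an effect of the parent and an effect of the strain cannot be told apart. The sources used here do not give the Cre driver, the age of the animals or the number of oocytes or embryos in a library. Oocyte columns count all reads of a gene, whereas morula and ExE columns count only reads assigned to the maternal or the paternal allele. Levels are given as CPM, counts scaled to library size, in embryos over allele-assigned reads only, and are compared only within a stage and within a gene. In all of these bulk samples, fewer cells that express a gene and less RNA per cell cannot be told apart.

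The oocyte libraries held 19805264 to 26364085 reads, the morula libraries 1299715 to 1685510 allele-assigned reads and the ExE libraries 3397585 to 4361832. Pcgf1 fell in KO oocytes by 5.56 on the log2 scale (SE 0.24, edgeR adjusted p = 2.0e-05) and Pcgf6 fell by 1.14 (SE 0.19, adjusted p = 0.0103), to 177 and 220 CPM from 396 and 429. In embryos Pcgf6 had 62.9% and 57.5% maternal reads in CTR morulae and 46.6% and 40.9% in matKO, and 58.1% to 65.6% in CTR ExE and at most 43.8% in matKO ExE. Its total did not pass in either stage (log2 -0.04 and -0.59, adjusted p = 0.918 and 0.132), and Pcgf1 had at most 4 reads in any embryo library. The sources used here do not give the deleted part of either gene, so reads that remain do not check the labels. One library stood apart: ExE matKO replicate 3 had 35.1% maternal reads over the autosomes, against 51.2% to 51.5% in the other ExE libraries and 50.5% to 51.4% in morulae. The ExE totals and changes of ratio of Sh3gl3, Bbx, Rbms1 and Hes1 are given with and without it. Known imprinted genes set other matKO ExE libraries apart as well. Of the reads of 4 maternally expressed imprinted genes, 99.5% and 99.6% were maternal in CTR ExE and 89.0%, 99.6%, 86.0% and 82.3% in matKO replicates 1 to 4. The fall was in H19, which had 99.8% and 99.7% in CTR and 87.2%, 99.9%, 84.5% and 80.4% in matKO. Igf2r, Grb10 and Meg3 each had 90.2% or more in every matKO ExE library. Of the reads of 4 paternally expressed imprinted genes, 1.34% and 0.511% were maternal in CTR ExE and 19.5%, 5.81%, 16.2% and 11.3% in matKO. In morulae the same lists had 75.6% and 64.0% (CTR) and 50.5% and 61.3% (matKO), and 2.08% and 9.68% (CTR) and 14.3% and 6.25% (matKO), from 14 to 95 reads. There H19 had 0 reads. Meg3 had 29 and 23 reads in CTR morulae and 7 and 3 in matKO, and stayed at 95.7% to 100% maternal. The oocyte marker list summed to at least 27770 CPM in every FGO library. The granulosa list summed to 91.7 to 94.1 CPM in CTR oocytes and 86.9 to 166 CPM in KO oocytes. The part of cell composition in the oocyte values was not tested. The trophoblast and ExE list summed to at least 1728 CPM in every ExE library.

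Promoters from the RefSeq sequence table are given for 4 of the 10 genes, Rbms1, Runx1, Sh3gl3 and Rbp2. Not every member was looked up, so absence of a gene here does not show that the table lacks it. The 4 promoters are shown because Polycomb complexes are known to gather at CpG-rich promoters. CpG content differed widely between them. Each line gives 300 bases around an annotated start, of GRCm38.p6, 5′ to 3′ on the strand of the gene, with every CG in capitals. Rbms1 has entries for 2 starts, of which the one at chr2:60881389-60881688 (minus strand) is printed. Runx1 also has 2 starts, and the one at chr16:92697280-92697579 (minus strand) is printed. The Sh3gl3 window is chr7:82174546-82174845 (plus strand) and the Rbp2 window is chr9:98490287-98490586 (plus strand).
Rbms1: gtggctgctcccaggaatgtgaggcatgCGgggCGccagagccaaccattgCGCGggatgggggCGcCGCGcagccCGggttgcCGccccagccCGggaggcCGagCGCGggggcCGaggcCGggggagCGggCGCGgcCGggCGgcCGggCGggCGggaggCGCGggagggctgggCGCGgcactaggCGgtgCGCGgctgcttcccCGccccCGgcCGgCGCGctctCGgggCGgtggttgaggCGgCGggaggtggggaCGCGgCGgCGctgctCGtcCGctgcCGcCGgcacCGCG
Runx1: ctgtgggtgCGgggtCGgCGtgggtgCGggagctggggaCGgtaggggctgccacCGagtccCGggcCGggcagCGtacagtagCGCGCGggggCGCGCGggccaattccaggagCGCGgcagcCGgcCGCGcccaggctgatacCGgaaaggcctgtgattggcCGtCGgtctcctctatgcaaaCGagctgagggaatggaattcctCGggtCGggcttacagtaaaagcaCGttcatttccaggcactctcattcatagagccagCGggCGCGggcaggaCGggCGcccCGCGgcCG
Sh3gl3: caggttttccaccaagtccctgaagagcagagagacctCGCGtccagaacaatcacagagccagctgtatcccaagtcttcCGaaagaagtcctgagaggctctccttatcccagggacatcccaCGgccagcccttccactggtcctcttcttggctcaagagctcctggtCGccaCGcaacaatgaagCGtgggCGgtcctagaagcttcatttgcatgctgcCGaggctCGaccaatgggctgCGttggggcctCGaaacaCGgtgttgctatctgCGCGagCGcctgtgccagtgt
Rbp2: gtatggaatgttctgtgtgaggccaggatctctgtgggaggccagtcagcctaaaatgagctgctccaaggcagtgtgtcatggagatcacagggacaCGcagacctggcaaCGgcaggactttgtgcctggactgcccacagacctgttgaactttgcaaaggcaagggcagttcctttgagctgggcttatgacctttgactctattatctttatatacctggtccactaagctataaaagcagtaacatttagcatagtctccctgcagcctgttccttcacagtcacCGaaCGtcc
The printed Rbms1 window holds 49 CG pairs and its other window 26. The printed Runx1 window holds 35 CG pairs and its other, upstream window only 2. Sh3gl3 has 16 and Rbp2 has 4. The median over 32851 promoter windows of that length was 7, with quartiles of 3 and 20, so Rbms1 and the printed Runx1 start lie above the upper quartile and Rbp2 lies near the lower one. The E-box CACGTG, the same word on both strands, was found in the upstream Runx1 window and in 7.15% of all windows. This is a match of letters only, and which start each library used was not analysed here.

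Sall3, Hes1, Runx1, Bbx and Rbms1 were higher in knockout oocytes. Epas1 and Sh3gl3 had higher but uneven values in the KO libraries, Rftn2 had lower values, and Gramd1b and Rbp2 were near 0 in both groups. Of the 8 genes that passed the filter on low counts, 5 passed an edgeR adjusted p under 0.05, all of them higher, where 7.22% of all 13459 tested genes passed and 5.35% were higher. This contrast was in view when the genes were chosen, so nothing is read from that count. The median log2 difference of the 8 was 3.46, beside 0.00 over all tested genes. A gene near 0 in CTR passes the filter only if KO is high. The groups did not overlap for any of the 8, and the same held for 50.2% of all tested genes.

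Sall3 (chromosome 18, 80966989 to 80987021), a zinc finger transcription factor, had 0.190 and 0.506 CPM in CTR oocytes and 32.3 and 16.9 CPM in KO oocytes. Its KO libraries stood far above both controls, a 70.7-fold ratio of means and a fitted log2 difference of 6.00 (SE 0.46), which was 6.86 without CTR replicate 2. Hes1 (chromosome 16, 30065357 to 30067796), the transcriptional repressor downstream of Notch, had 0.190 and 0.506 CPM in CTR and 4.63 and 6.06 CPM in KO. The groups did not overlap and the means differed 15.4-fold (log2 3.84, SE 0.51, and 4.70 without CTR replicate 2). Runx1 (chromosome 16, 92601466 to 92826074), a regulator of blood stem cells, had 0.266 and 0.117 CPM in CTR, or 7 and 3 reads, and 1.32 and 4.24 CPM in KO. KO replicate 2 gave most of that rise: the fitted log2 difference was 3.77 (SE 0.79), and without that library it was 2.54 and no longer passed. Without KO replicate 1 or CTR replicate 1 it was 4.44.

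Bbx (chromosome 16, 50191844 to 50432466), an HMG-box transcription factor, was already present in CTR oocytes at 7.74 and 4.39 CPM and reached 43.0 and 35.4 CPM in KO. Both KO libraries lay above both controls, with a 6.46-fold ratio of means (log2 2.59, SE 0.27). Rbms1 (chromosome 2, 60750193 to 60963880), which encodes a single-stranded nucleic acid binding protein, had 3.34 and 3.58 CPM in CTR and 46.4 and 37.7 CPM in KO. Replicates of Rbms1 were close to each other in both groups, and the fitted log2 difference was 3.50 (SE 0.21).

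Epas1 (chromosome 17, 86753864 to 86833410), an oxygen-regulated subunit of the hypoxia-inducible factors, had 0.872 and 0.272 CPM in CTR and 7.95 and 1.77 CPM in KO oocytes. Sh3gl3 (chromosome 7, 82173808 to 82307420), which encodes an endophilin of endocytosis, had 0.948 and 0.311 CPM in CTR and 12.5 and 2.68 CPM in KO. In both genes the KO libraries lay above the controls but replicate 1 was over 4 times as high as replicate 2, and neither fitted difference passed (log2 2.92, SE 0.79, for Epas1 and log2 3.42, SE 0.83, for Sh3gl3). Epas1 passed without KO replicate 2 or without CTR replicate 1, at log2 3.57 and 3.96, and Sh3gl3 passed without KO replicate 2, at 4.09.

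Rftn2 (chromosome 1, 55170159 to 55227063), which encodes a lipid raft protein, was the one gene of the group with lower values in KO oocytes, 10.3 and 6.53 CPM in CTR against 6.13 and 3.74 CPM in KO. The groups lay close together, and the fitted log2 difference of -0.88 (SE 0.32) did not pass. Gramd1b (chromosome 9, 40293233 to 40533614), which encodes a sterol transfer protein, had 9 and 4 reads in CTR and 1 and 11 reads in KO. Rbp2 (chromosome 9, 98490537 to 98509771), which encodes an intracellular retinol-binding protein, had 0 and 2 reads in CTR and 0 in both KO libraries. Both were too low to be tested, and 3 reads in an FGO library correspond to 0.114 to 0.151 CPM.

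**Figure D1:**
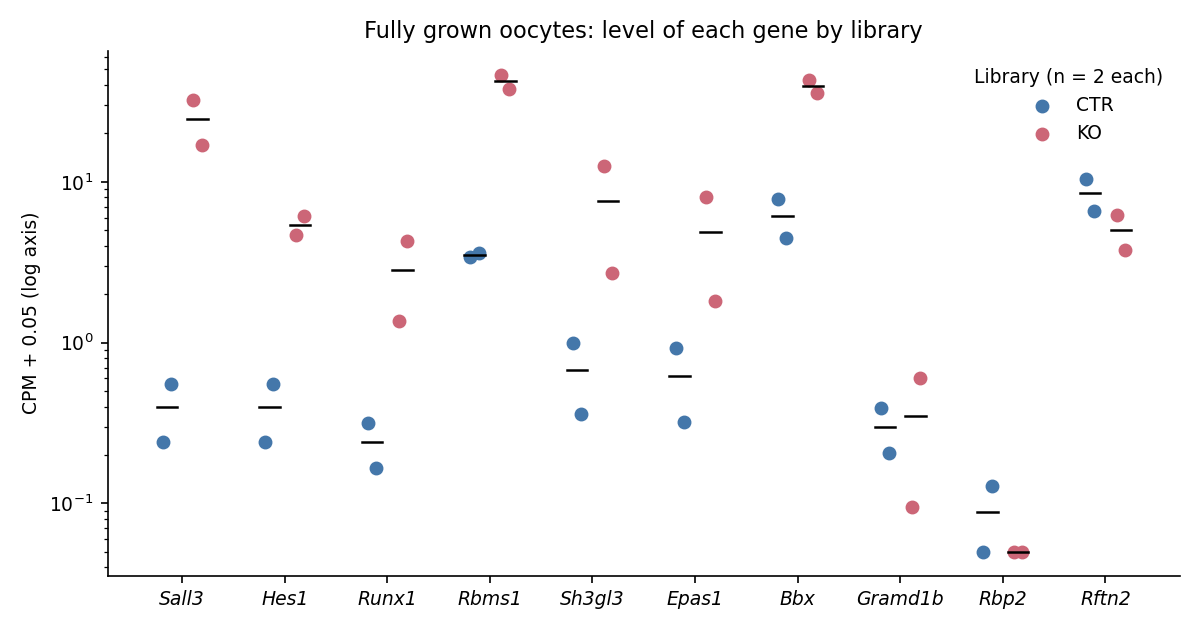
Level of each gene in fully grown oocytes, as CPM plus 0.05 on a log axis, with one point per library and a bar at the mean of 2 libraries per group. Sall3, Hes1, Runx1, Rbms1, Sh3gl3, Epas1 and Bbx have both KO libraries above both CTR libraries, and Rftn2 has both below.

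The control morulae show which of these genes were read more from the paternal copy. An allelic ratio is given as log2 of paternal over maternal reads, with the ratio over all autosomal reads set to 0. Of the 8 genes with a mean of 20 reads or more, 5 were paternally biased and 1 was maternally biased at an edgeR adjusted p under 0.05. Shares of 4 of the 8 were known when the group was drawn up, so nothing is read from that count or from the median. Among all 7637 genes tested, 25.2% were biased in one direction or the other and 10.4% were paternally biased. The median ratio of the 8 genes was 1.55 and that of all tested genes was -0.01, and Runx1 lies above that median at its bound as well. The 4 with known shares, Bbx, Hes1, Gramd1b and Rftn2, are given without a p. Whether the shares of the other genes were also in view is not given, so a p printed for them is a description too.

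Bbx had 62 maternal and 329 paternal reads in CTR replicate 1 and 20 and 260 in replicate 2, maternal shares of 15.9% (95% exact interval 12.4 to 19.9) and 7.14% (4.42 to 10.8). Its fitted ratio was 2.96 (SE 0.29), and 3.77 without CTR replicate 1. Rbp2 had 12 and 12 maternal reads beside 143 and 84 paternal reads, shares of 7.74% and 12.5%. Its ratio was 3.28 (SE 0.32, adjusted p = 0.00105 by edgeR's quasi-likelihood test). Runx1 had 0 maternal reads in either library beside 55 and 30 paternal reads. Its paternal reads were at least 28.3-fold more than maternal reads taking 3 counts for the whole group as the floor, and the 95% exact upper limit of its maternal share was 4.25% for 0 of 85 reads (edgeR adjusted p = 0.00445).

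Epas1 had 42 and 23 maternal reads beside 111 and 87 paternal reads, shares of 27.5% and 20.9%, so that the maternal copy was lower but clearly read. The ratio was 1.70 (SE 0.19, edgeR adjusted p = 0.00187). Rbms1 had the mildest paternal bias, with shares of 36.5% and 25.6% from 137 and 78 reads. Its ratio was 1.19 (SE 0.26, edgeR adjusted p = 0.0195), and it did not pass when either CTR library was left out, at 0.88 and 1.61 (adjusted p = 0.162 without CTR replicate 2 and 0.0683 without CTR replicate 1). Rbp2, Epas1 and Runx1 passed in each of the 4 leave-outs.

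The other genes did not share that direction. Hes1 had 49.3% and 45.5% maternal reads, from 138 and 88 reads, beside 51.4% over all autosomal reads in both CTR libraries, and a ratio of 0.22 (SE 0.23, 95% interval -0.33 to 0.77). Rftn2 was read mostly from the maternal copy, at 87.8% and 72.7% from 41 and 44 reads, a ratio of -1.92 (SE 0.47) that did not pass when either CTR library was left out, at -1.32 and -2.73. CTR oocytes also contained Rftn2 RNA, which any carry-over would add to the maternal side, and how much was carried over was not tested. Gramd1b had 1 of 6 and 8 of 25 reads from the maternal copy, and with so few reads the interval of replicate 1 ran from 0.421% to 64.1%. Sh3gl3 had 2 reads in all in CTR morulae and Sall3 had 0, so neither could be said to be biased or not.

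**Figure D2:**
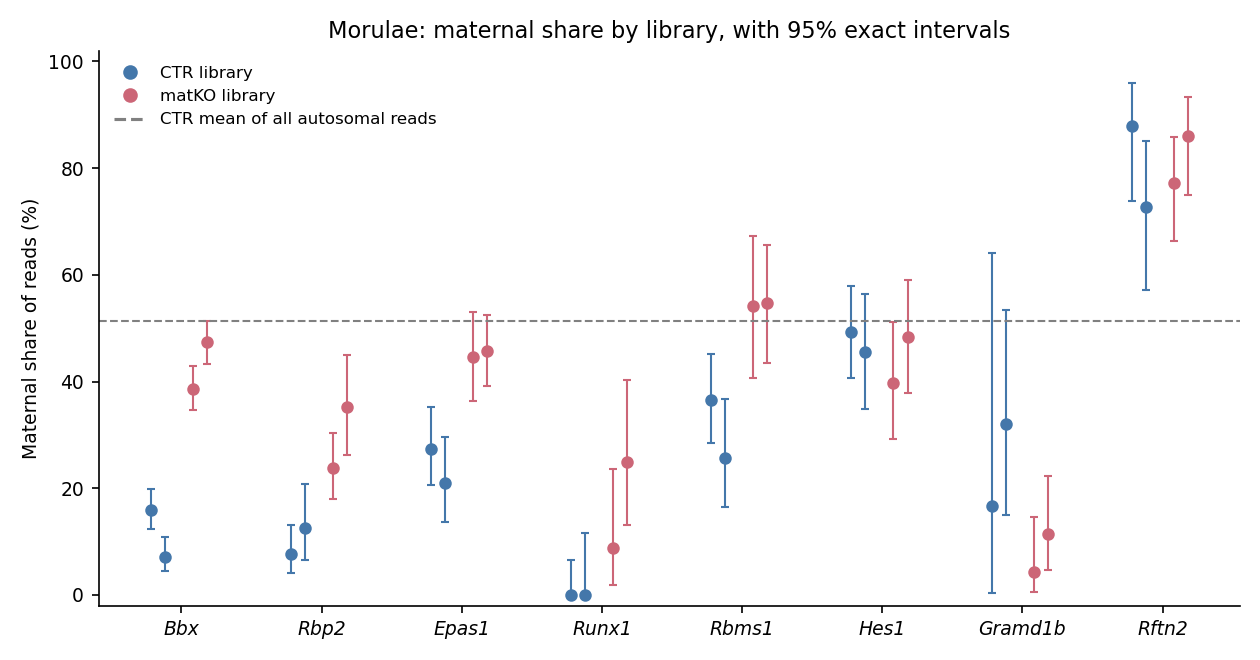
Maternal share of the allele-assigned reads (percent) of 8 genes in each morula library, with 95% exact intervals for counting error. CTR libraries of Bbx, Rbp2, Epas1, Runx1 and Rbms1 lie below the dashed line of all autosomal reads, Hes1 lies near it and Rftn2 lies above it.

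In matKO morulae the maternal reads of Bbx, Rbp2, Epas1 and Runx1 were more numerous, and their paternal reads differed less. These contrasts are a description, as they may have been known when the genes were chosen. In total expression, 1 of 8 tested genes passed, Bbx, with an adjusted p just under the threshold, beside 0.132% of 9063 tested genes. In the allelic ratio itself none of the 8 passed, beside 0.0393% of 7637 genes (3 genes, with 626 at an unadjusted p under 0.05). DESeq2's Wald test called 1 of the 8, Bbx. On the maternal counts alone 0 of 6 tested genes passed (0.18% of 7781 genes, 1286 at an unadjusted p under 0.05), and on the paternal counts 0 of 8 (0.421% of 7604 genes, 1422 at an unadjusted p under 0.05). DESeq2 called Bbx and Epas1 on the maternal and Gramd1b on the paternal counts. Total levels did not overlap between groups for Bbx, Epas1, Gramd1b and Rftn2, where this held for 53.1% of tested genes. The median change of ratio was -1.40 for the 8 genes and 0.02 for all tested genes. A negative change is a shift towards the maternal copy.

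Bbx had 36.8 and 12.6 maternal CPM in CTR and 165 and 217 in matKO, and 195 and 164 paternal CPM in CTR and 262 and 242 in matKO. The maternal level was 7.75-fold higher and the paternal level 1.40-fold higher, with no overlap on either allele. The maternal share was 38.7% and 47.3% in matKO, near but still below the autosomal 51.0% and 50.5% of those libraries. The fitted change of ratio was -2.52 (SE 0.38), with -3.33 without CTR replicate 1 and -2.04 without CTR replicate 2. The log2 difference of the maternal counts was 2.98, with 3.95 without CTR replicate 1 and 2.44 without CTR replicate 2.

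Rbp2 had 7.12 and 7.56 maternal CPM in CTR and 35.4 and 28.2 in matKO, a 4.33-fold difference without overlap. Its paternal level overlapped, at 84.8 and 52.9 CPM in CTR and 114 and 51.9 in matKO. The maternal share was 23.7% and 35.2% in matKO, so the paternal copy remained the larger source in both libraries (change of ratio -1.92, SE 0.43). Rbp2 thus had near 0 reads in oocytes of either genotype and a higher maternal level in matKO morulae.

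Epas1 had 24.9 and 14.5 maternal CPM in CTR and 50.0 and 76.4 in matKO, and 65.9 and 54.8 paternal CPM in CTR and 62.3 and 90.5 in matKO. Only the maternal values were without overlap, and the maternal share was 44.5% and 45.8% in matKO (change of ratio -1.39, SE 0.26). Runx1 had 0 maternal reads in CTR and 3 and 11 in matKO, beside 55 and 30 paternal reads in CTR and 31 and 33 in matKO. Its maternal share in matKO was 8.82% and 25.0%, with exact intervals that reach up to 23.7% and 40.3%.

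Rbms1 differed on the paternal side instead. Its maternal share was 54.2% and 54.8% in matKO against 36.5% and 25.6% in CTR, but its maternal level overlapped (29.7 and 12.6 CPM in CTR, 24.6 and 34.1 in matKO). The paternal level was lower in matKO, 51.6 and 36.5 CPM in CTR against 20.8 and 28.2, with a fitted log2 difference of -0.81 (SE 0.31) that did not pass. The change of ratio was -1.41 (SE 0.38).

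Gramd1b differed on the paternal side. It had 2.97 and 10.7 paternal CPM in CTR and 34.6 and 40.1 in matKO, 5.46-fold higher, while its maternal level overlapped at 0.593 and 5.04 CPM in CTR and 1.54 and 5.19 in matKO. The log2 difference of the paternal counts was 2.49, and 1.82 without CTR replicate 1 and 3.68 without CTR replicate 2, both of which passed where the fit of all libraries did not. Its maternal share was 4.26% and 11.5% in matKO, below both controls, but the change of ratio of 2.10 (SE 0.89, 95% interval -0.05 to 4.25) did not pass and rests on 6 and 25 CTR reads. Rftn2 was higher on the maternal copy (21.4 and 20.2 CPM in CTR, 46.9 and 40.8 in matKO) while its share stayed at 77.2% and 85.9%, overlapping the controls. Hes1 overlapped on both alleles and in its share, which was 39.8% and 48.4% in matKO.

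Sall3 had 0 reads in both CTR morulae, which allows up to 1.78 and 1.89 CPM. The matKO morulae had 4 and 22 reads of Sall3, of which 0 and 4 were maternal and 4 and 18 paternal. Paternal reads thus outnumbered maternal reads of Sall3 in both matKO libraries. Sh3gl3 had 2 and 0 reads in CTR and 2 and 3 in matKO, at or under the floor of 3 counts.

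RNA stored in the oocyte would also count as maternal in a morula. The oocyte marker list summed to 892 to 1015 CPM in CTR morulae and 1172 to 1287 CPM in matKO morulae, led by Dppa3, with 62.8% to 63.7% maternal reads in CTR and 60.5% to 62.8% in matKO. Of its 16 genes 13 were detected in CTR and 15 in matKO morulae. Other lists differed too: the trophoblast list was at 923 to 949 CPM in CTR and 644 to 788 in matKO, the pluripotency and morula list at 3379 to 3433 and 2618 to 3132, and the decidua list at 11.3 to 33.8 and 2.97 to 7.69. In KO oocytes themselves Bbx, Epas1 and Runx1 were higher, as given above, whereas Rbp2 had 0 reads there. The part of stored RNA and of cell composition in the higher maternal reads of Bbx, Rbp2, Epas1 and Runx1 was not tested.

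**Figure D3:**
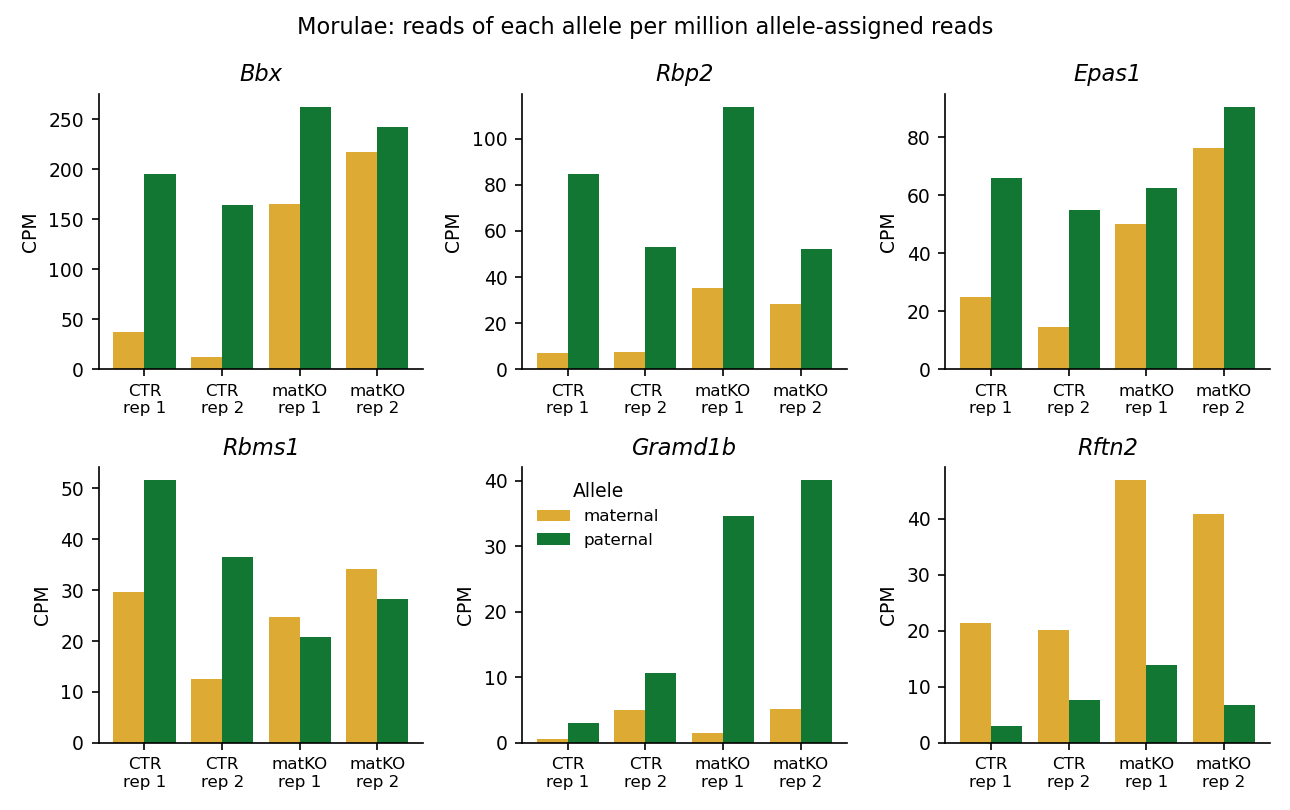
Maternal and paternal reads of 6 genes in each morula library, as CPM of allele-assigned reads, with one pair of bars per library. In matKO libraries the maternal bars of Bbx, Rbp2 and Epas1 are higher than in CTR, the paternal bars of Gramd1b are higher and the paternal bars of Rbms1 are lower.

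In ExE only 4 of the 10 genes, Bbx, Rbms1, Hes1 and Sh3gl3, had enough reads for a test of the allelic ratio. Epas1 and Rbp2 had 0 reads in all 6 libraries, where 3 reads correspond to 0.688 to 0.883 CPM. Rftn2 had 2 reads in CTR replicate 1 and 0 elsewhere. Runx1 had 5 to 13 reads per library and Gramd1b 5 to 17. Sall3 had 0 reads in both CTR libraries and 2 to 4 in the 4 matKO libraries.

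Bbx was read from both copies in control ExE, with 90 maternal and 101 paternal reads in CTR replicate 1 and 32 and 52 in replicate 2. The maternal shares of 47.1% (exact interval 39.9 to 54.5) and 38.1% (27.7 to 49.3) were far above the 15.9% and 7.14% of CTR morulae. The ExE ratio was 0.45 (SE 0.22, 95% interval 0.00 to 0.89, edgeR adjusted p = 0.124). The difference between the stages was tested in 1 fit of all 10 libraries, in which 9.65% of 7609 genes differed between stages and 5.41% had a lower ratio in ExE. The fitted difference for Bbx was -2.53 (SE 0.35), and -3.34 without morula CTR replicate 1. It is given without a p, since it rests on the morula shares that were known when the gene was chosen.

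Rbms1 had shares of 46.5% and 43.1% in CTR ExE from 516 and 601 reads, a small paternal excess. Its ratio of 0.39 (SE 0.12, edgeR adjusted p = 0.0104) passed, where 31.5% of 6857 genes passed and 14.3% were paternal, but not without CTR replicate 2 (0.28, adjusted p = 0.280). The ratio was lower than in morulae by a log2 difference of -0.77 (SE 0.24, edgeR adjusted p = 0.0490). That difference did not pass in 7 of the 10 leave-outs, where it ranged from -1.23 to -0.49. Runx1 had 9 of 16 reads from the maternal copy in CTR ExE against 0 of 85 in CTR morulae. ExE CTR replicate 2 gave 7 of those 9 reads. Runx1 had too few ExE reads for a test there and met the minimum of the 2-stage fit only through its morula reads, so its difference is a description.

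Hes1 had shares of 51.6% and 41.6% in CTR ExE from 64 and 77 reads, with a ratio of 0.29 (SE 0.31, edgeR adjusted p = 0.526). Its ratio differed from that in morulae by 0.07 (95% interval -0.70 to 0.85). Sh3gl3, which had almost no reads in morulae, had 9 and 4 maternal reads beside 21 and 14 paternal reads in CTR ExE. Its ratio was 1.50 (SE 0.49, edgeR adjusted p = 0.0182), and it did not pass when either CTR library was left out (adjusted p = 0.108 without CTR replicate 1 and 0.166 without CTR replicate 2).

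The matKO ExE libraries were compared with CTR ExE next, in 2 against 4 libraries. In total expression 0 of the 5 tested members passed, and 0 of 8386 genes passed edgeR at all (percent called 0), with 1165 genes at an unadjusted p under 0.05. DESeq2's Wald test called 214 genes and 1 member, Sh3gl3. In the allelic ratio 0 of the 4 tested members passed, beside 0.0729% of 6857 genes and 435 at an unadjusted p under 0.05. On the paternal counts alone 1 of 4 tested members passed, Sh3gl3, where 0.722% of 7338 genes passed and 0.695% were higher. On the maternal counts alone 0 of 5 passed, where 3.37% of 7488 genes passed (848 at an unadjusted p under 0.05). DESeq2 also called 0 members in the allelic ratio and on the maternal counts.

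Sh3gl3 had 4.98 and 3.21 paternal CPM in CTR ExE and 34.5, 19.0, 12.7 and 17.4 in matKO replicates 1 to 4. Every matKO library lay above both controls, and the mean was 5.10-fold higher. The fitted log2 difference on the paternal counts was 2.32 (SE 0.42, edgeR adjusted p = 0.00376). It passed without replicate 3 (log2 2.50, adjusted p = 0.0382) and did not pass without CTR replicate 2 (log2 2.08, adjusted p = 0.0631).

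The maternal copy of Sh3gl3 overlapped, at 2.13 and 0.917 CPM in CTR and 3.67, 2.75, 1.35 and 0.883 CPM in matKO. Its maternal share was 30.0% and 22.2% in CTR and 9.62%, 12.6%, 9.62% and 4.84% in matKO. The change of ratio, 1.68 (SE 0.63), did not pass (edgeR adjusted p = 0.597), and was 1.83 without replicate 3. In total, Sh3gl3 had 7.11 and 4.13 CPM in CTR and 38.1, 21.7, 14.0 and 18.2 CPM in matKO, without overlap, as for 23.8% of tested genes in ExE. The log2 difference of the total was 2.01 (SE 0.44, edgeR adjusted p = 0.145), and 2.19 (adjusted p = 0.0526) without replicate 3.

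Bbx in ExE had 45.3 and 19.3 CPM in CTR and 76.3, 33.0, 61.0 and 79.5 CPM in matKO. Its groups overlapped, and the log2 difference of 0.93 (SE 0.41, 95% interval -0.01 to 1.88) did not pass (edgeR adjusted p = 0.364). It was 0.47 without CTR replicate 2, 1.62 without CTR replicate 1 and 0.94 without matKO replicate 3, and it passed with the replicate number as a block (log2 0.74, adjusted p = 0.0243). On the paternal counts Bbx did not pass (log2 1.04, adjusted p = 0.321), but it did without CTR replicate 1 (1.56, adjusted p = 0.0488) or matKO replicate 2 (1.27, adjusted p = 0.0204). The maternal share was 46.8%, 46.2%, 25.2% and 43.0% in matKO, where the low value is replicate 3, the library with 35.1% maternal reads over all autosomes. The change of ratio, set against each library's autosomal ratio, was -0.02 (SE 0.25, 95% interval -0.53 to 0.49), and -0.09 (SE 0.26) without replicate 3.

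Rbms1 had 122 and 138 CPM in CTR ExE and 129 to 138 CPM in matKO, with a log2 difference of 0.01 (95% interval -0.30 to 0.32), and -0.0021 without replicate 3. Its matKO shares were 49.0%, 50.8%, 32.0% and 47.8%, with replicate 3 again the low one. The change of ratio was -0.24 (SE 0.14, edgeR adjusted p = 0.847), and -0.26 without replicate 3. Hes1 had 15.2 and 17.7 CPM in CTR and 16.5 to 23.7 CPM in matKO, with shares of 36.7%, 43.2%, 25.0% and 39.3%, and neither its total nor its ratio passed (log2 0.30 and 0.39, adjusted p = 0.620 and 0.946). Without replicate 3 they were 0.30 and 0.38.

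Marker lists also differed between the ExE groups. The pluripotency and morula list, led by Krt18, Krt8 and Utf1, summed to 7542 to 7865 CPM in CTR and 2958 to 5176 CPM in matKO. Krt18 alone averaged 5561 CPM in CTR and 2913 CPM in matKO, so this sum is mainly a keratin level. Pou5f1 and Tdgf1 had 0 allele-assigned reads in both groups. The trophoblast and ExE list summed to 1728 to 2354 CPM in CTR and 2504 to 3616 CPM in matKO, and the visceral endoderm list to 2.29 to 4.27 CPM in CTR and 8.91 to 30.6 CPM in matKO. The list for decidua and uterus would add maternal reads. It summed to 1.83 to 6.16 CPM in CTR and 1.08 to 22.7 CPM in matKO, with 8 of its 12 genes at 0 in each group. Dcn and Hand2 were at 0 in both, whereas Prl8a2 was at 0 in CTR and led the list in matKO, at a mean of 4.58 CPM. Reads of this list were 46.2% to 62.5% maternal in CTR and 68.4% to 88.2% in matKO. Without replicate 3 the matKO range was 2958 to 4534 CPM for the list led by Krt18 and 2504 to 3616 for the trophoblast list. It was 12.7 to 30.6 for visceral endoderm and 1.47 to 22.7 for decidua. The part of cell composition in the Sh3gl3 and Bbx values was not tested.

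**Figure D4:**
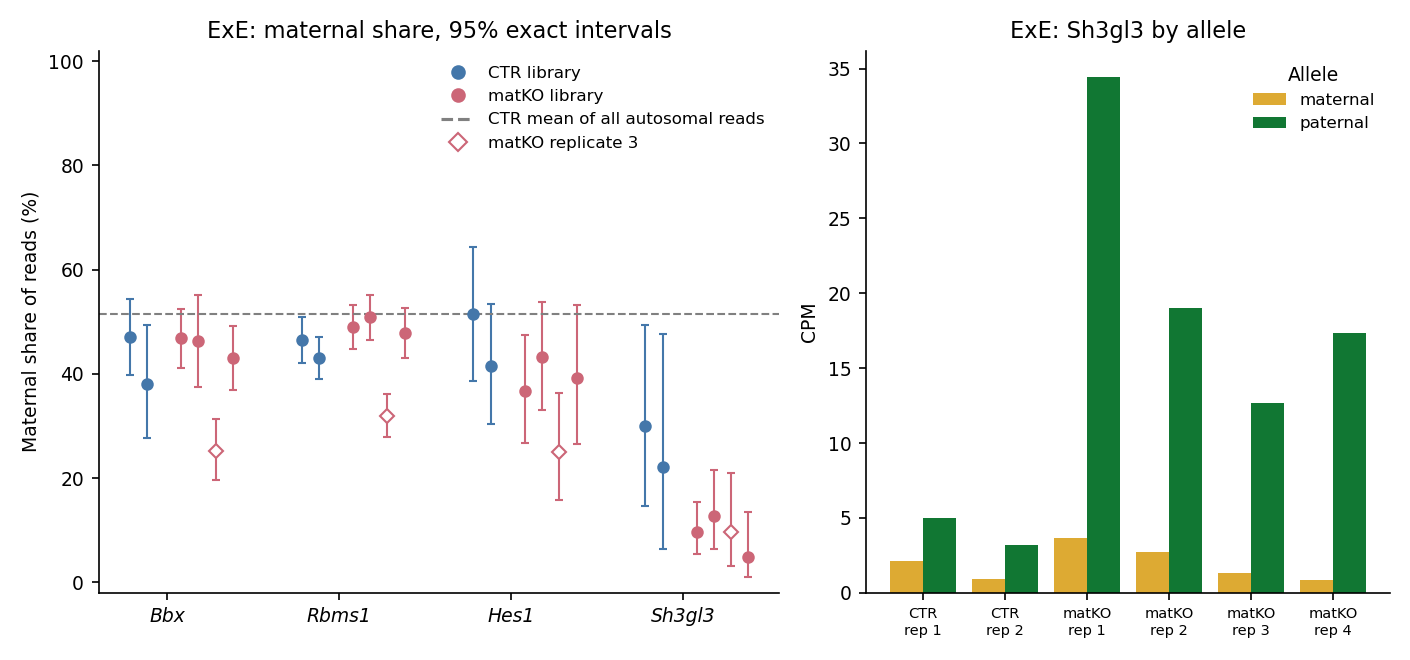
Left, maternal share of reads (percent) of 4 genes in each ExE library with 95% exact intervals, with matKO replicate 3 as open diamonds. Right, Sh3gl3 reads of each allele as CPM of allele-assigned reads: the 4 matKO libraries have 12.7 to 34.5 paternal CPM and the CTR libraries 4.98 and 3.21.

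A list of 19 other genes reported with maternal H3K27me3, compiled from background knowledge, was described in the same fits. In KO oocytes 5 of 11 tested genes were higher, beside 5.35% of all tested genes, and 0 lower: Tle3, a corepressor gene, Hunk, a kinase gene, Clic6, a chloride channel gene, Sfmbt2, a Polycomb group gene of the placenta, and Etv6, an ETS factor gene. Etv6 differed by log2 2.03 (SE 0.35), and the others had 4 reads or fewer in CTR oocytes, so their fitted values are no measure of size. Those others passed the filter on low counts only through their KO reads, so they could only come out higher. The list was also chosen with earlier results of these data known, and nothing is read from the count. Tle3 and Clic6 did not pass without KO replicate 1, and Hunk passed in 1 of 4 leave-outs. In CTR morulae 7 of 11 were paternally biased, beside 10.4% of all tested genes, and 0 maternally, with a median ratio of 2.05; E2f3 and Platr20 were the ones that lost their call without a library. In matKO morulae 0 of 11 passed edgeR's test of a changed ratio (0.0393% of all tested genes), with a median change of -1.03.

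In CTR ExE, 3 of 11 of those genes were paternally biased, beside 14.3% of all tested genes. They were Slc38a4, an amino acid transporter gene, Platr20, a long noncoding RNA, and Jade1, a subunit gene of a histone acetyltransferase complex. Slc38a4 and Jade1 did not pass when either CTR library was left out. The median ratio of the 11 genes was 1.85 and that of all tested genes was 0.01. Sfmbt2, Smoc1 and Gab1 did not pass, although only 0.28%, 2.42% and 17.2% of their pooled CTR ExE reads were maternal. The matKO libraries enter the same estimate of the spread, and there the Sfmbt2 share ranged from 0.18% to 48.5%. A gene that did not pass is therefore not shown to be unbiased. On the maternal counts of matKO ExE 4 of 10 passed as higher, beside 3.37% of all tested genes in either direction: Slc38a4, Smoc1, a secreted matrix protein gene, Platr20 and Jade1, where 0 of the 5 tested members passed. None of these 4 passed without matKO replicate 3, at edgeR adjusted p = 0.183, 0.0525, 0.0527 and 0.111, and 30 of all tested genes then passed in place of 252. The log2 differences of Jade1 and Platr20 were 1.73 and 2.99, and 1.74 and 3.08 without that library. Platr20 also changed its ratio (-3.01, edgeR adjusted p = 0.0111), but did not pass when either CTR library was left out. Between stages the control ratio of Jade1 differed by -0.20 (SE 0.41, adjusted p = 0.879), while that of E2f3, a cell cycle regulator, fell by 2.56 (SE 0.77, edgeR adjusted p = 0.0431). The E2f3 difference did not pass in 6 of 10 leave-outs. Mbnl2, an RNA-binding splicing factor, had 0 maternal and 42 paternal reads in CTR morulae, and 75 and 70 in CTR ExE. Its lower ratio in ExE was called in all 10 leave-outs. Mbnl2 had too few morula reads for a test there and met the minimum of the 2-stage fit only through its ExE reads. Its difference is therefore a description, and the fitted value is no measure of size.

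The genes most like Bbx were ranked by the mean absolute difference of the maternal share over the 10 morula and ExE libraries, among 5049 autosomal genes with at least 20 reads in each. The nearest was Sgcb, a sarcoglycan gene, at 5.16 percentage points, followed by Mtap, Tada3, 1700025G04Rik and Mfn1 at 6.01 to 6.60, where the median gene was 15.1 points away. Sgcb had 11.0% to 14.3% maternal reads in CTR morulae, 42.0% to 50.8% in matKO morulae, 36.6% to 39.1% in CTR ExE and 27.1% to 47.4% in matKO ExE. Mtap, which encodes a methionine salvage enzyme, had 14.8% to 25.7% in CTR morulae and 41.7% to 46.3% in matKO morulae. These genes share the libraries, the cross and the depth limits of Bbx, and the ranking is a description.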

How the data were processed

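The authors deposited 1 table of raw counts per gene for 24077 genes and 14 RNA libraries, with 1 column for each FGO library and a maternal and a paternal column for each morula and ExE library, per the file headers. Of the 58 samples of the series, 40 are CUT&RUN samples and 4 are RNA samples of reciprocal crosses, and these were not used here. cDNA was made with the SMART-Seq v4 kit and libraries with Nextera XT, per the labels' protocols, a chemistry that does not mark strand. The submitters' processing notes list STAR 2.7.3, RSEM 1.3.1 and Trim Galore 0.6.4 and the build mm10. Not given in the sources used here are the tool that counted, the annotation and how a read was assigned to a parent.

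The members and lists were chosen with earlier results of these data known. All 10 members are described, and Pcgf1, Pcgf6 and 8 imprinted genes serve as checks. Other genes are named where they passed (at most 6 from a list in a comparison) or were the 5 most like Bbx. Sfmbt2, Smoc1 and Gab1 are also named in CTR ExE, where they did not pass. Expression was tested with edgeR 4.0.16 (R 4.3.3; TMM, filterByExpr, robust quasi-likelihood F test), with maternal and paternal counts summed in embryos. Allelic ratios were tested with edgeR on both counts, with a term per library, offsets from the autosomal totals of each allele and a minimum mean of 20 reads. In ExE and in the difference between stages, genes on the X chromosome were left out. P-values were adjusted over all tested genes (Benjamini-Hochberg, threshold 0.05). The fits were tested on simulated data. DESeq2 1.42.0, another scaling, other filters, a replicate term and leaving out each library were tried as alternatives. Shares have 95% exact Clopper-Pearson intervals and the floor is 3 counts; both cover counting error only, since reads carry no molecular identifiers. Symbols were matched to GRCm38.p6 (23975 by symbol, 82 by synonym, 20 unmatched), and coordinates and promoters are from RefSeq of that build. Nothing in the labels says that replicates came from separate animals, so p-values measure the spread between these samples, which may be technical. Reads of overlapping or antisense genes and of near copies cannot be separated.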

Additional observations from a re-analysis of the deposited data

Results flagged for a closer look

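In the 4 matKO ExE libraries, 25 sets of values were checked for a sample far from the rest, and 4 had one, all of them replicate 3. Chance gives about 1 in 20 separate sets. These sets share libraries and reads, so that rate is no benchmark for them. The autosomal maternal share of replicate 3 was 35.1%. Its Rbms1 maternal share was 32.0%, and its Rbms1 paternal level was 93.7 CPM. Its Runx1 paternal level was 2.16 CPM, from 8 reads.

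The fit of the difference in CTR allelic ratio between ExE and morulae called 3 of the 9 members in it, beside 9.65% of all 7609 genes and 5.41% with a lower ratio in ExE. Nothing is read from that count. Epas1 and Rbp2 had 0 reads in ExE, Rftn2 had 2 in CTR ExE and Sh3gl3 had 2 in CTR morulae. Only Bbx, Rbms1 and Hes1 had a mean of 20 reads or more in each stage. The morula shares of Bbx were known when it was chosen. The difference was -2.53 for Bbx and -0.77 for Rbms1 on the log2 scale. For Runx1 the fitted difference was -9.54, a value that depends on the prior count because 0 maternal reads were found in CTR morulae, so it is no measure of size, and Runx1 had only 16 reads in CTR ExE.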

How the results depend on the processing

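The 663 alternative values of single members gave 564 with the same direction and side of the threshold, 39 that newly passed, 29 that no longer passed and 31 that changed sign. Replicate numbers are shared labels only: with 2 pairs a stage, deviations of same-numbered samples correlated at 0.24 in FGO, 0.17 in morulae, and 0.26 and 0.07 in ExE. The fit with the replicate number as a block called 8 members in FGO in place of 5, 2 in place of 1 in morula totals, 2 in place of 0 in ExE totals, 2 in place of 0 on morula paternal counts and 1 (Rbp2) in place of 0 in the morula allelic ratio; under it Rbms1 and Rftn2 lost their bias in CTR morulae, the Rbms1 difference between stages did not pass, and Hes1 turned to 0.24 on ExE maternal counts and 0.012 in the morula total, and Rbms1 to -0.11 on ExE paternal counts. Over all genes the block gave 2006 calls in FGO in place of 972, 328 in place of 12 in morula totals and 922 in place of 0 in ExE totals.

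DESeq2's Wald test called 0 members biased in CTR ExE in place of 2, 1 in ExE totals in place of 0, and, in place of 0, 2 on morula maternal counts (Bbx and Epas1), 1 on morula paternal counts and 1 in the morula allelic ratio; Rbms1 and Rftn2 lost their bias in CTR morulae and Rbms1 its difference between stages. It called 209 genes in morula totals and 214 in ExE totals. With no filter on low counts, 4 members passed in morula totals, 3 on morula maternal counts, 3 on morula paternal counts and 1 in ExE totals, and 1632 genes in FGO, 473 in morula totals and 118 in ExE totals. With no correction for the mean allelic ratio, 0 members were biased in CTR ExE, the Bbx change in ExE turned to 0.18 and the Rbms1 difference between stages did not pass, nor did it with a mean of at least 10 reads. DESeq2's size factors gave 42 calls in place of 12 in morula totals. A mean of 20 reads in each stage, chosen after seeing the data, called Bbx and Rbms1 in the difference between stages and left Runx1 untested.

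Leaving out each library gave 0 to 2 members biased in CTR ExE, 4 to 6 in CTR morulae, 5 to 6 called in FGO, 1 to 3 in morula totals, 0 to 1 on morula maternal counts, 0 to 2 on the paternal counts of morulae and of ExE, and 1 to 2 in the difference between stages; ExE totals, ExE maternal counts and both changes of ratio stayed at 0. Values that changed sign ranged from -0.35 to 0.18 for the Bbx change of ratio in ExE. For Rbms1 they ranged from -0.11 to 0.15 in ExE totals, -0.057 to 0.14 on ExE maternal counts, -0.16 to 0.20 on ExE paternal counts and -0.53 to 0.16 in morula totals. For Hes1 they ranged from -0.23 to 0.35 for the difference between stages, -0.0071 to 0.57 for the CTR ExE ratio, -0.24 to 0.10 on ExE maternal counts, -0.10 to 0.43 for the change of ratio in morulae, and -0.24 to 0.29, -0.39 to 0.25 and -0.10 to 0.32 for its morula total, maternal and paternal counts. For Runx1 they ranged from -0.087 to 0.67 in morula totals and from -0.37 to 0.38 on morula paternal counts. They ranged from -0.37 to 0.77 for Rbp2 morula paternal counts and from -0.75 to 0.65 for the Rftn2 change of ratio in morulae. The causes were not tested. Sh3gl3 had at most 3 reads in a morula library. In CTR morulae Sall3 had 0 reads and Gramd1b at most 25 a library. In ExE, Runx1, Gramd1b, Rftn2 and Sall3 had at most 17 reads a library. Whether depth or low expression limits these genes was not tested.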
